A study of Saccharomyces cerevisiae with 31 samples.

Results

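The 34 genes described here encode the enzymes of yeast glycolysis with their isoenzymes, the enzymes that turn pyruvate into ethanol, the first step of glycerol synthesis, the enzymes that make and remove fructose 2,6-bisphosphate, and 3 transcription factors of glycolytic genes. They were chosen by gene name, case ignored, and all 34 of the 34 names were found among the 6713 genes of the authors' deposited table. The table holds 1 scaling score per gene for each of 6 series of Saccharomyces cerevisiae cultures, 31 libraries in all. In 4 series the cells carry Cdc28-as, an analog-sensitive allele of the cyclin-dependent kinase gene that the bulky inhibitor 1NM-PP1 blocks, so that cells grow without dividing. Elutriation is a sorting of cells by size in a centrifuge. Elutriated Cdc28-as cells given 1NM-PP1 made up experiment 1 (5 libraries, 15.23 to 50.77 fl of cell size), experiment 2 (3 libraries, 14.92 to 41.8 fl) and experiment 3 (3 libraries, 18.61 to 66.46 fl). Unelutriated Cdc28-as cells were followed after 1NM-PP1 in a time course of 8 libraries (21.56 to 44.02 fl). Wild-type (WT) cells, which carry no such allele, also received 1NM-PP1, in 6 elutriated libraries from 2 to 7 h and 6 unelutriated libraries from 0 to 6 h. All cultures grew in YEP with ethanol as the added carbon source, and a known amount of Candida albicans cells was added before RNA extraction.

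Glycolysis splits glucose into pyruvate, and yeast ferments the pyruvate to ethanol by decarboxylating it to acetaldehyde and reducing that to ethanol. Most steps are reversible and run backwards, as gluconeogenesis, when cells live on ethanol, whereas the hexokinase, phosphofructokinase and pyruvate kinase steps run in the glycolytic direction alone. Budding yeast keeps duplicate genes for many steps, with a main form that serves growth on glucose and a minor form that is known for use on other carbon sources or under stress. The transcription factors Gcr1 and Gcr2 drive the main glycolytic genes, and Tye7 adds to this.

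A score behaves as the slope of a gene's abundance, relative to the first library of its series, on cell size (per fl) or, in WT cells, on time (per h). This reading was checked on genes that can have been detected in the first library alone, whose slope would be -0.0197 per fl for the sizes of experiment 1 and -0.0218 per fl for those of experiment 3: 104 and 111 genes held these scores within 1e-07. The same check found 96 and 44 genes in the elutriated and unelutriated WT series, but only 2 in experiment 2 and 3 in the time course, where the reading is assumed. A score of 0 is then a level that stayed the same on the authors' scale, and the sources used here do not say if that scale counts a gene's portion of the reads or sets it against the Candida RNA. The RNA is from whole cultures, so fewer cells with a transcript and less transcript per cell cannot be told apart. On this reading, growth in proportion to cell size has a slope set by the first size if the scale is set against the Candida RNA. That slope would be 0.0657, 0.0670, 0.0537 and 0.0464 per fl in experiments 1, 2 and 3 and the time course. On a scale of portions of the reads it would not mark growth in proportion to size. Over the genes scored in all 3 elutriation experiments the median gene scored 0.00735, 0.0110 and 0.00178 per fl. Levels per library and depth per library are unknown. The labels do not say that the 3 experiments came from separate cultures, so p-values across them measure only the spread between these series.

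In the 3 elutriation experiments the genes as a group lay low. Of the 33 genes scored in all 3, 13 lay below the median gene in every experiment and 0 above it in every experiment, a share of 39.4% below. Among all 5771 genes scored in all 3, 22.5% lay below throughout and 22.3% above. The 13 genes were HXK1, PFK2, PFK26, FBP26, TPI1, TDH1, ENO1, PYK2, PDC1, GPD1, GPD2, TYE7 and GCR1. The other 20 genes scored in all 3 lay on different sides in different experiments, and GPM3 had no score in experiment 3. The split depends on where the line is drawn. Measured against a score of 0 in place of the median gene, 8 lay below throughout (HXK1, PFK26, FBP26, TDH1, ENO1, PDC1, GPD1 and GPD2) and 5 above (HXK2, PGI1, TDH2, CDC19 and ADH4), while over all genes the counts were 690 below and 2049 above.

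The median of the 34 scores was 0.000665, -0.00170 and -0.00171 per fl in experiments 1, 2 and 3, the last over 33 genes. None of these genes exceeded the slope given above for growth in proportion to size in experiments 1 and 3, where 12.9% and 3.14% of all genes did. In experiment 2 only PFK27, PDC5 and ADH4 did so, against 8.87% of all genes, and these have median read counts of 11.5, 2.5 and 7.5 in experiment 1. Since the scale is not known, these counts do not show if the transcripts grew less than cell size. None of the 33 genes had a limma adjusted p under 0.05, and 0 of all 5771 genes (0%) did. At an unadjusted p under 0.05 it had 519 genes (8.99%), among them 2 of the 33, GPD1 and PFK26, both below the median gene. Limma's adjusted p values (Benjamini-Hochberg) for the 33 genes ran from 0.460 to 0.981.

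**Figure D1:**
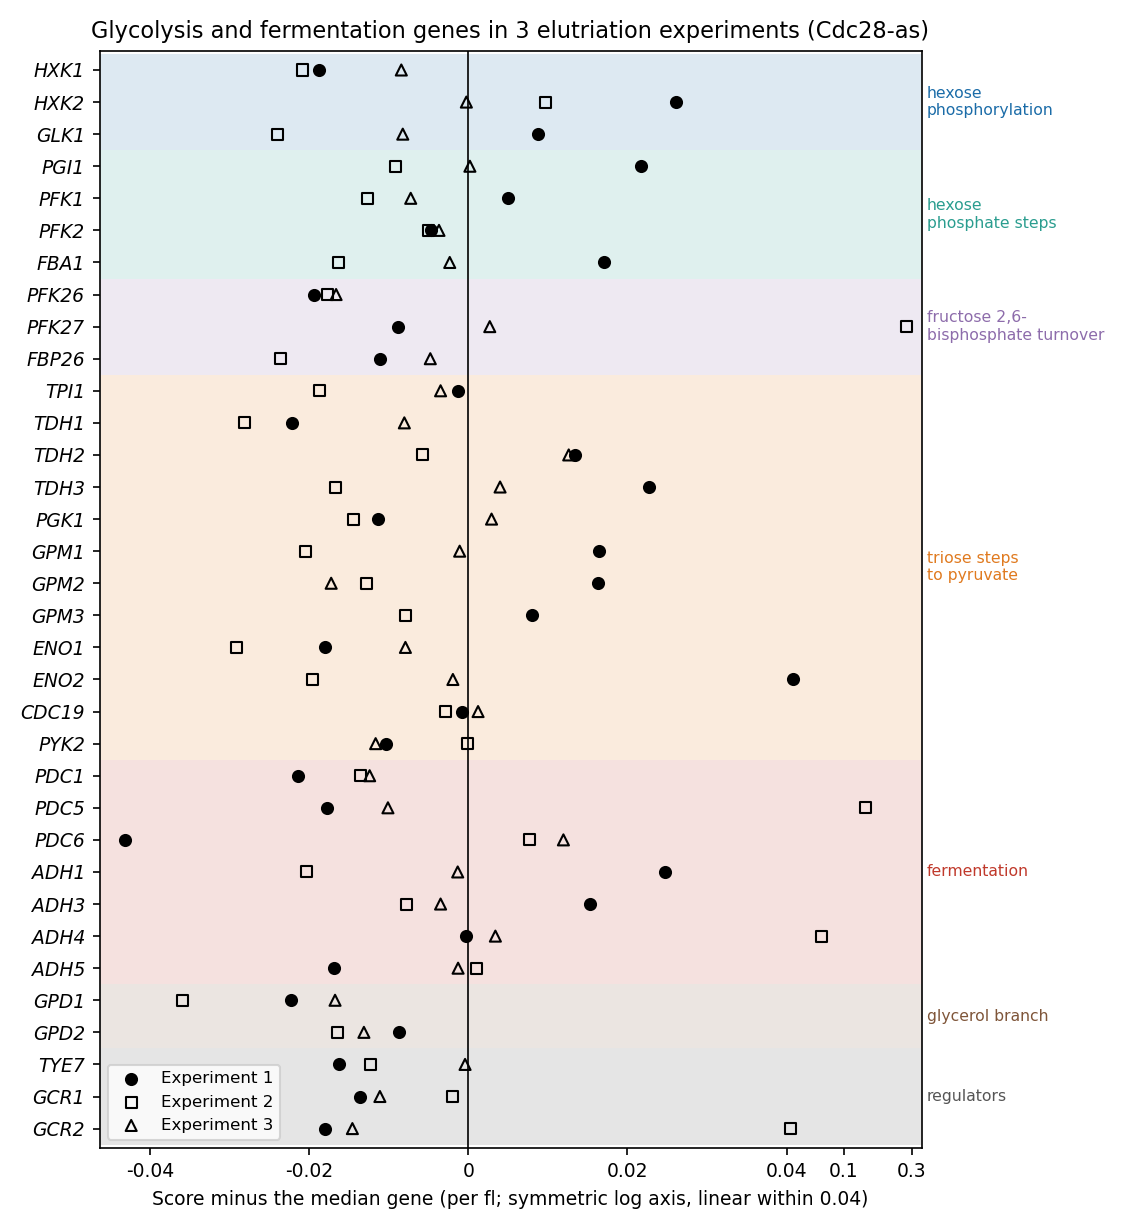
Score minus the median gene, per fl, for each gene in the 3 elutriation experiments of Cdc28-as cells, on a symmetric log axis; each symbol is 1 experiment, and bands mark the roles. HXK1, TDH1, ENO1, PDC1, GPD1, GPD2 and PFK26 have all 3 symbols left of 0, while ENO2, ADH1 and GPM1 are right of 0 in experiment 1 and left of it in experiments 2 and 3.

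The first step, phosphorylation of glucose, is shared by 3 enzymes. HXK2 (YGL253W, chromosome VII, 23935 to 25395, R64) encodes the main hexokinase of glucose-grown cells, which also has a part in glucose repression. It scored 0.0335, 0.0207 and 0.00153 per fl in experiments 1, 2 and 3. HXK1 (YFR053C, chromosome VI, 253592 to 255049), its close paralogue known for use on other carbon sources, scored -0.0114, -0.00988 and -0.00664 per fl. In these 3 experiments every score of HXK1 was negative and every score of HXK2 positive. In the time course both were negative, HXK1 at -0.0309 per fl, and in elutriated WT cells both were positive, HXK1 at 6.75 per h. HXK2 lay 0.0449, 0.0306 and 0.00817 per fl over HXK1 (mean 0.0279 ± 0.0185, SD, n = 3 experiments). HXK2 was also the higher of the pair in the time course and in both WT series, 6 of 6 series in all. The glucokinase gene GLK1 scored 0.0161, -0.0129 and -0.00646 per fl, under HXK2 in all 3 experiments. In the time course GLK1 scored -0.0142 and HXK2 -0.0150 per fl.

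This difference between isoenzymes was compared for 22 pairs of genes that serve the same or a paired step. Of the 20 pairs with 3 values, 8 had the same sign in all 3 experiments. No share over other pairs of genes was computed, so this count has no background to be read against. HXK2 and TDH1 recur among the 8, so these are not 8 separate observations. A two-sided exact sign-flip permutation test over 3 experiments cannot give less than p = 0.25, which is the value for each of these 8, so no single pair difference can pass a threshold of 0.05 here. The 8 were HXK2 over HXK1, HXK2 over GLK1, TDH3 over TDH1, TDH2 over TDH1, ENO2 over ENO1, PFK27 over PFK26, PDC5 over PDC1 and GPD2 over GPD1. With the unelutriated time course added, 4 of them had the same sign in all 4 series: HXK2 over HXK1, TDH3 over TDH1, ENO2 over ENO1 and PDC5 over PDC1. In the time course HXK2 lay 0.0159 per fl over HXK1, but the other differences were small. They were 0.00199 per fl for TDH3 minus TDH1, 0.00120 for ENO2 minus ENO1 and -0.00249 for PDC1 minus PDC5. PDC5 has a median of only 2.5 reads, and among genes with 10 or more reads the count over the 3 experiments was 7 pairs, without PDC5 over PDC1.

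**Figure D2:**
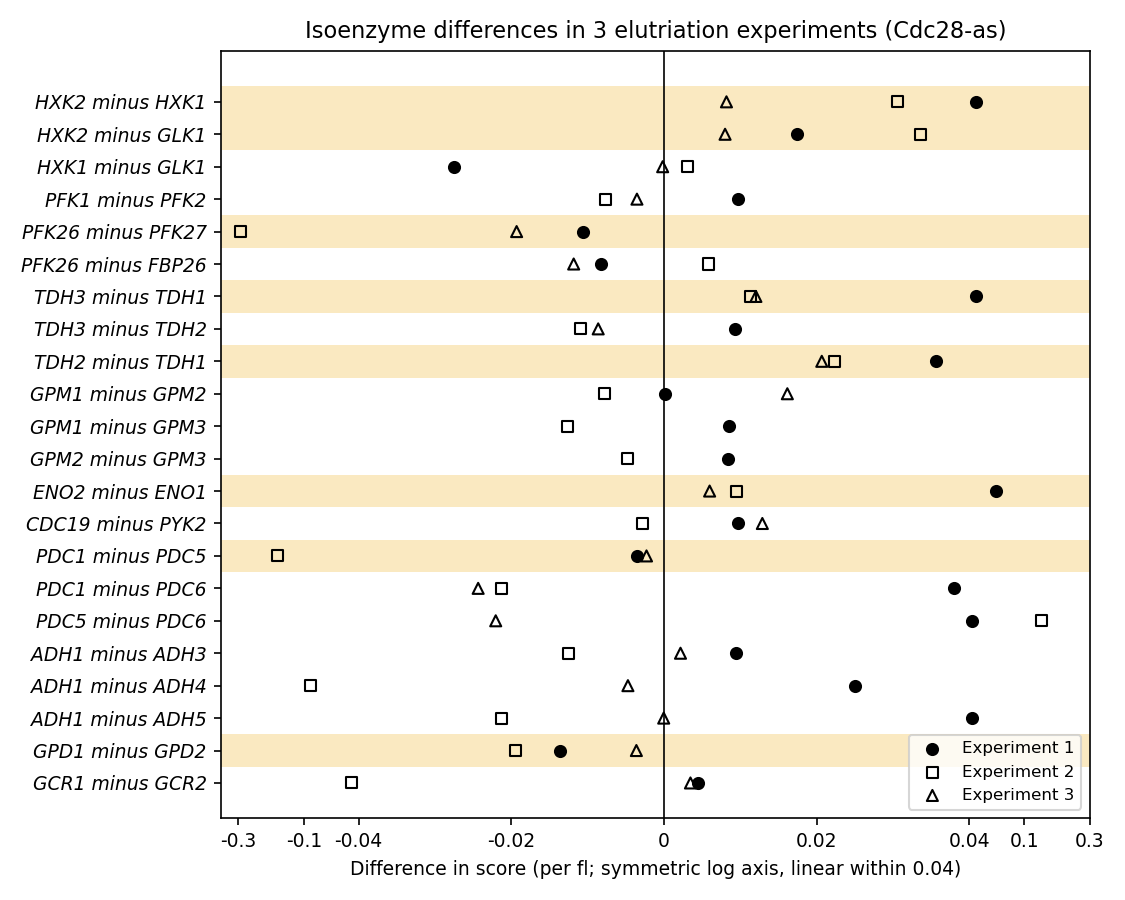
Difference in score, per fl, between the first and the second gene of 22 isoenzyme or paired-function comparisons, on a symmetric log axis; each symbol is 1 elutriation experiment of Cdc28-as cells. Shaded rows are the 8 pairs with the same sign in all 3 experiments. The pairs with GPM3 have 2 symbols, as GPM3 was not scored in experiment 3.

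The steps from glucose 6-phosphate to the trioses have 4 genes. PGI1, for phosphoglucose isomerase, scored 0.0290, 0.00184 and 0.00198 per fl, and FBA1, for fructose-bisphosphate aldolase, 0.0244, -0.00526 and -0.000557 per fl. PFK1 and PFK2 encode the alpha and beta subunits of phosphofructokinase, the committed step. PFK1 scored 0.0123, -0.00167 and -0.00546 per fl and PFK2 scored 0.00266, 0.00597 and -0.00191 per fl, so neither subunit was the higher throughout. Relative to the median gene PFK2 stood at -0.00469, -0.00504 and -0.00368 per fl, a mean of -0.00447 per fl with a limma SE of 0.00563 (adjusted p = 0.692), and without centring that mean was 0.00224 per fl.

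Fructose 2,6-bisphosphate switches phosphofructokinase on, and its makers and its phosphatase form a small group of their own. PFK26 (YIL107C, chromosome IX, 163278 to 165761), a 6-phosphofructo-2-kinase gene, scored -0.0121, -0.00673 and -0.0148 per fl. These values are all negative and lie close together once the median gene is taken off, at -0.0194, -0.0177 and -0.0166 per fl (mean -0.0179, limma SE 0.00565, adjusted p = 0.460). Its score times the span of sizes was -0.429, -0.181 and -0.710, in units of the starting level. This product describes the slope alone, since a level cannot fall by more than it was and PDC6 had -1.85 in experiment 1. FBP26, the phosphatase gene, scored -0.00377, -0.0126 and -0.00300 per fl. PFK27, the second kinase gene, scored -0.00146, 0.285 and 0.00447 per fl, and its value in experiment 2 was the highest of the 34 genes there, at percentile 99.7 of all genes. In the time course PFK27 stood at the other end, at -0.0530 per fl and percentile 1.96.

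From the trioses to pyruvate, 12 genes serve 6 reactions. TDH1, TDH2 and TDH3 encode glyceraldehyde-3-phosphate dehydrogenase, with TDH3 the main form in growing cells and TDH1 the form known from stationary and stressed cells. TDH1 (YJL052W, chromosome X, 338271 to 339269) scored -0.0148, -0.0171 and -0.00626 per fl. TDH2 scored 0.0207, 0.00523 and 0.0144 per fl, and TDH3 scored 0.0300, -0.00574 and 0.00577 per fl. TDH1 was thus the lowest of the 3 in every elutriation experiment, by 0.0356, 0.0223 and 0.0207 per fl under TDH2 (mean difference 0.0262 ± 0.00818, SD, n = 3) and by 0.0449, 0.0114 and 0.0120 per fl under TDH3. In the time course the order was different, with TDH3 at -0.0156, TDH1 at -0.0176 and TDH2 at -0.0327 per fl. In both WT series TDH1 was the highest of the 3, at 39.7 per h against 27.8 for TDH3 and 5.74 for TDH2 in elutriated cells, and at -0.0215 per h against -0.0699 and -0.0839 in unelutriated cells.

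Enolase has 2 genes. ENO1 (YGR254W, chromosome VII, 1000927 to 1002240), the form less tied to glucose, scored -0.0107, -0.0181 and -0.00613 per fl. ENO2 (YHR174W, chromosome VIII, 451327 to 452640), the form induced by glucose, scored 0.0514, -0.00857 and -0.000160 per fl. ENO2 lay over ENO1 in 6 of 6 series, but the size of the difference rests on experiment 1, at 0.0622 per fl against 0.00952 and 0.00597 per fl in experiments 2 and 3. The ENO2 score in experiment 1 was the highest of the 34 genes in that experiment.

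These paralogues are so alike that reads can match both copies, and the sources used here do not say how such reads were assigned. In R64, 94.8% of aligned coding bases are identical between ENO1 and ENO2, 95.8% between TDH2 and TDH3, 88.9% between TDH1 and TDH3, and 77.7% between HXK1 and HXK2. Of the stretches of 50 bases in each coding sequence, 23.6% in ENO1 and in ENO2, 31.3% in TDH2, 24.4% in TDH3 and 15.7% in TDH1 also occur in another coding sequence, while none do in HXK1 and HXK2. Reads from such a stretch carry no mark of their gene, so the ENO and TDH differences are less certain than that of the hexokinases. The longest stretch that each pair shares base for base is shown, from the reference genome of RefSeq, on the coding strand and without capitals because it holds no difference. The TDH3 and TDH2 run is 173 bases long (chrVII:883284-883456 in TDH3, minus strand) and the ENO2 and ENO1 run is 112 bases long (chrVIII:451877-451988 in ENO2, plus strand).
TDH3 and TDH2: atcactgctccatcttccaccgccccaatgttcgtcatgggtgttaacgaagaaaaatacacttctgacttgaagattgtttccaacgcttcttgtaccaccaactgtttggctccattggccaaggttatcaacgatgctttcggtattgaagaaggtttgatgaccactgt
ENO2 and ENO1: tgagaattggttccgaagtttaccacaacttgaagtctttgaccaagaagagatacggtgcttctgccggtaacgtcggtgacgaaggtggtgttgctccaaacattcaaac

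The other triose genes showed no shared direction. TPI1, for triose phosphate isomerase, scored 0.00608, -0.00770 and -0.00171 per fl, and PGK1, for phosphoglycerate kinase, -0.00396, -0.00346 and 0.00470 per fl. Of the phosphoglycerate mutase genes, GPM1 encodes the active main enzyme, and GPM2 and GPM3 are homologues thought to lack function. GPM1 scored 0.0238, -0.00948 and 0.000691 per fl, and GPM2 scored 0.0237, -0.00172 and -0.0155 per fl. GPM3 scored 0.0153 and 0.00313 per fl in experiments 1 and 2, from a median of only 2 reads. The pyruvate kinase gene CDC19 scored 0.00659, 0.00811 and 0.00300 per fl, and stood close to the median gene, at -0.000763, -0.00290 and 0.00123 per fl from it. PYK2, a pyruvate kinase gene repressed by glucose, scored -0.00305, 0.0109 and -0.00987 per fl, and in experiment 2 it stood at -7.05e-05 per fl from the median gene.

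The 7 fermentation genes had no direction in common. PDC1 (YLR044C, chromosome XII, 232390 to 234081), for the main pyruvate decarboxylase, scored -0.0140, -0.00259 and -0.0106 per fl (mean -0.0158 per fl from the median gene, limma SE 0.00599, adjusted p = 0.460). PDC5, a decarboxylase gene that is raised when PDC1 is lost, scored -0.0105, 0.153 and -0.00832 per fl, and PDC6, a minor form, -0.0521, 0.0187 and 0.0137 per fl. PDC5 and PDC6 had median read counts of 2.5 and 3, against 89.5 for PDC1, so their scores start from few reads. ADH1, the cytosolic enzyme that makes ethanol, scored 0.0321, -0.00926 and 0.000445 per fl. ADH3, its mitochondrial relative, scored 0.0227, 0.00321 and -0.00171 per fl, and ADH5 scored -0.00957, 0.0120 and 0.000493 per fl. ADH4, an alcohol dehydrogenase of a different enzyme family, scored 0.00701, 0.0809 and 0.00518 per fl. In ADH1, 140 of 998 stretches of 50 bases also occur elsewhere, mostly in ADH2, the gene for the ethanol-oxidising enzyme.

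Both genes of the glycerol branch lay below the median gene throughout. GPD1 and GPD2 encode glycerol-3-phosphate dehydrogenase, GPD1 being the form known from osmotic stress and GPD2 the form known from growth without oxygen. GPD1 (YDL022W, chromosome IV, 411825 to 413000) scored -0.0149, -0.0249 and -0.0150 per fl, and GPD2 (YOL059W, chromosome XV, 217126 to 218448) scored -0.00133, -0.00548 and -0.0113 per fl. All 6 values are negative, and GPD1 was the lower in all 3 experiments. GPD1 had the lowest mean of the 33 genes, -0.0250 per fl from the median gene (limma SE 0.00701, unadjusted p = 0.0271, adjusted p = 0.460). Its score times the size span was -0.530, -0.670 and -0.716, in units of the starting level, and it stood at percentiles 15.4, 1.54 and 6.86 of all genes.

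The 3 regulators lay below the median gene in experiment 1. TYE7 scored -0.00884, -0.00131 and 0.00137 per fl, GCR1 -0.00622, 0.00900 and -0.00933 per fl, and GCR2 -0.0106, 0.0539 and -0.0128 per fl. TYE7 and GCR1 were below the median gene in all 3 experiments, TYE7 at -0.000407 per fl from it in experiment 3, and GCR2 was below it in experiments 1 and 3 and above it in experiment 2.

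Read counts, given for experiment 1 only, set the genes apart per length. Per kilobase of coding sequence, TPI1 had a median of 400.3 reads, GPM1 346, GLK1 185, TDH3 181, FBA1 172 and ADH3 168, while PDC5 had 1.48, PDC6 1.77, GPM3 2.19 and PYK2 4.27. TDH1 had 13.5 and ENO1 13.7, against 71.1 for TDH2 and 38.8 for ENO2, and PDC1 had 52.9. The hexokinases differed less, at 45.2 for HXK2 and 36.4 for HXK1. The median over the 34 genes was 70.2 reads, not per length, against 19 over all genes. Of the 34 genes, 29 reached 10 reads, the 5 others being PDC5, PDC6, GPM3, PYK2 and ADH4.

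In the unelutriated time course every one of the 34 genes had a negative score, but so did 95.3% of all genes. Relative to the median gene of that series (-0.0201 per fl), 25 of the 34 lay below and 9 above. The lowest were PDC6 (-0.0667 per fl), PFK27 (-0.0530 per fl) and TYE7 (-0.0420 per fl), and the highest was ADH5 (-0.0137 per fl). Of 33 genes scored in all 4 series of Cdc28-as cells, 12 lay below the median gene in each, the 13 named above without TDH1, and 0 lay above in each. Among 5758 genes 13.4% lay below in all 4 and 13.1% above.

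The experiments ordered the genes differently. Across the 34 genes, Spearman's rho of the scores was 0.024 between experiments 1 and 2, 0.401 between experiments 1 and 3 and 0.293 between experiments 2 and 3 (33 genes for the last 2), against 0.340, 0.346 and 0.307 across all genes. These are correlations across genes, which are not independent replicates, and genes with few reads enter each of them.

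The WT cells form 1 elutriated and 1 unelutriated series with different time windows and first libraries, so these features cannot be told apart. Elutriated WT cells gave most of these genes very high scores: 27 of 32 scored genes lay above the median gene of 0.136 per h, and 16 of 32 (50%) lay at or above percentile 90, where 634 of 6341 genes (10%) lie by construction. This threshold was chosen after the values were seen. PGI1 scored 66.6 per h, HXK2 54.7, PFK2 53.5, CDC19 41.4, TDH1 39.7, FBA1 31.5, ADH1 28.4, TDH3 27.8, GPM3 27.0 and GLK1 24.2 per h. Low in the same series were PYK2 (-0.515 per h), PDC6 (-0.201 per h) and FBP26 (-0.182 per h). The 4 genes of the hexose phosphate steps had percentiles from 96.0 to 99.6. Lower in the pathway the percentiles were spread widely. The 12 genes from the trioses to pyruvate ran from 0.733 (PYK2) to 98.9 (CDC19), with TDH1 at 98.8 and a median of 84.7. The 5 scored fermentation genes ran from 5.62 (PDC6) to 98.1 (ADH1), with a median of 82.7. Among the lists of other pathway genes described below, PCK1, of gluconeogenesis, scored 67.3 per h. In those lists percentile 90 was reached by 5 of 12 genes for the use of ethanol and acetaldehyde. It was reached by 3 of 11 pentose phosphate, 2 of 7 gluconeogenesis, 2 of 8 glycerol and 1 of 10 regulator genes. PDC5 and ADH3 had no score in elutriated WT cells. GPM3 has a median of only 2 reads in experiment 1. Its score in unelutriated WT cells, -0.106 per h, is the slope of a gene detected in the first library alone.

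2 measured features of the elutriated WT series move with these high scores, and their part in them was not tested. Genes with more reads in experiment 1 scored higher: 38.5% of genes with 100 or more reads reached percentile 90, with 6 of 8 of the genes described here, against 1.49% of genes with under 10 reads and 1 of 4 of these genes. For 50 to under 100 reads the share was 17.5% of genes and 7 of 13 of these genes, and for 10 to under 50 reads 7.44% and 2 of 7. The scores of all genes also bunched at steps. Within 1.5 per h of 13.4, 26.9, 40.3 and 53.8 per h, which are the first 4 multiples of 13.4, lay 207 genes, against 48 within the same distance of the points halfway above them. Of the genes described here 9 lay at a whole multiple up to the fifth (GCR2 and GPD2, then GPM3 and TDH3, then CDC19 and TDH1, then HXK2 and PFK2, and PGI1 at the fifth) and 0 at a halfway point. This sets 5 whole multiples against 4 halfway points, and the fifth multiple held 5 genes in all. PFK1, GLK1, ADH1 and FBA1, at 15.9, 24.2, 28.4 and 31.5 per h, lay at neither. Over all genes, 418 scored over 10 per h. The step was taken as the median score around the first bunch, so that window is centred on its own genes. The score of a gene is relative to its level in the first library, at 2 h, and values per library were not used here.

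**Figure D3:**
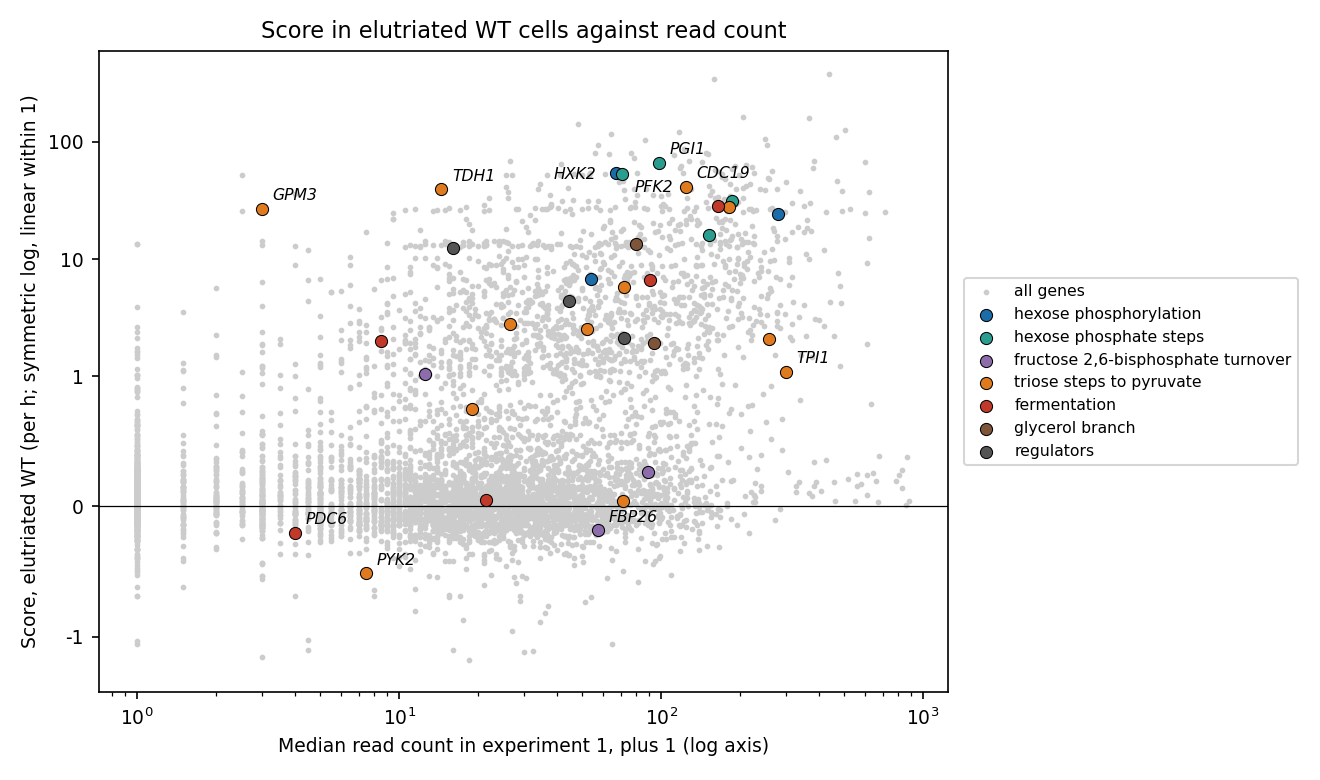
Score in elutriated WT cells, per h on a symmetric log axis, against the median read count in experiment 1 plus 1 on a log axis; grey points are all genes and coloured points the genes described here, by role. PGI1, HXK2, PFK2, CDC19 and TDH1 lie high, at 39.7 to 66.6 per h, PYK2, PDC6 and FBP26 lie below 0, and grey bands are visible near 13.4 and 26.9 per h.

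In unelutriated WT cells 15 of 32 genes lay above the median gene of -0.0390 per h and 17 below. The highest were PGI1 (0.581 per h), GPD2 (0.271 per h), ADH3 (0.181 per h), PDC1 (0.166 per h) and GPM1 (0.121 per h). The lowest were PDC6 (-0.145 per h), GCR2 (-0.143 per h), HXK1 (-0.137 per h) and PFK1 (-0.132 per h). PGI1 was at percentile 98.9 here and 99.6 in the elutriated WT series, and at 73.0, 34.1, 52.3 and 42.0 in experiments 1, 2 and 3 and the time course of Cdc28-as cells. Scores per fl and per h cannot be compared directly, so percentiles within a series are given, as a description and with no test. Of 30 genes scored in all 6 series, 4 (GPD2, PDC1, ENO1 and GCR1) lay below the median gene in every Cdc28-as series and above it in both WT series, a pattern of 3.51% of all genes, and 0 showed the opposite, a pattern of 3.23%.

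**Figure D4:**
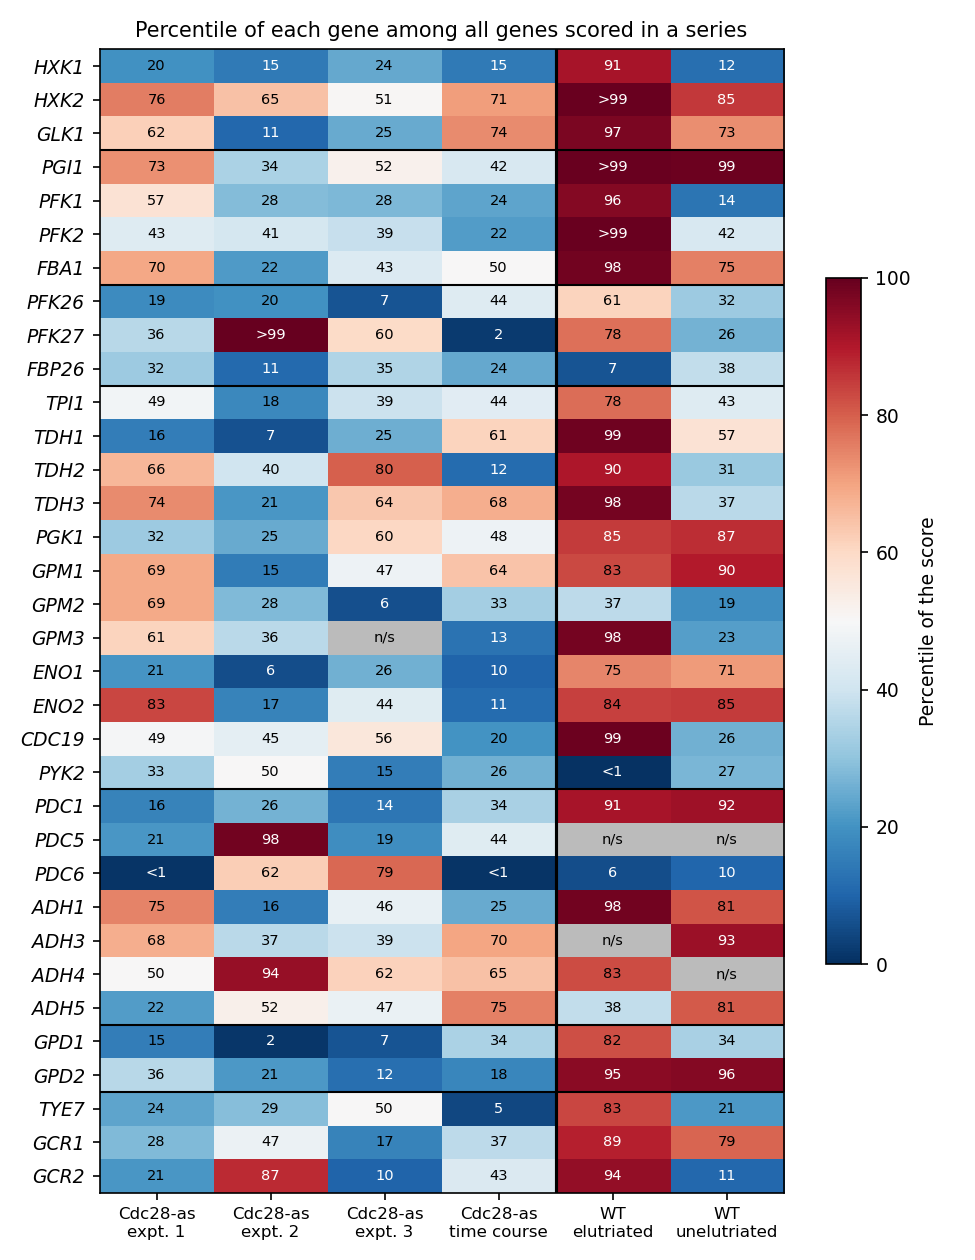
Percentile of each gene's score among all genes scored in the same series, in 4 Cdc28-as series (left of the thick line) and 2 WT series. The mark n/s is a gene with no score, and 50 is the median of all genes scored in that series. HXK1, ENO1, GPD1 and PFK26 are blue in all Cdc28-as series, and 16 of 32 genes reach 90 in elutriated WT cells.

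Other genes of the pathway were taken from lists drawn up by function. Of 11 pentose phosphate pathway genes, which make NADPH and pentoses from glucose 6-phosphate, 5 lay above the median gene in all 3 elutriation experiments (TKL1, RKI1, GND1, RPE1 and SOL3) and 4 below (ZWF1, GND2, NQM1 and TKL2). Among all genes 22.3% lay above and 22.5% below throughout, which is the background for this list and for those that follow. GND1, for the main phosphogluconate dehydrogenase, scored 0.0494, 0.0151 and 0.00800 per fl, and GND2 scored -0.0205, -0.0264 and -0.0126 per fl. The paralogues SOL3 and SOL4, for 6-phosphogluconolactonase, had no constant order, with SOL3 at 0.0446, 0.0753 and 0.00936 per fl and SOL4 at -0.0140, -0.0102 and 0.0264 per fl. The transketolase gene TKL1 scored 0.110, 0.0351 and 0.00416 per fl and its minor form TKL2 -0.0470, -0.00390 and -0.0184 per fl, the latter from a median of 0.5 reads. Of 7 genes for gluconeogenesis and glucose phosphates 3 lay below (FBP1, PGM2 and EMI2) and 1 above (PYC1). FBP1, the phosphatase that opposes phosphofructokinase, scored -0.0140, -0.0123 and -0.00994 per fl, near the values of HXK1.

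Of 12 genes for the use of ethanol and acetaldehyde 5 lay below (ADH2, ALD3, ALD4, ACS1 and BDH1) and 2 above (ACS2 and ALD2). ADH2 scored -0.00557, -0.0131 and -0.00551 per fl. Of the acetyl-CoA synthetase genes, ACS2 was at 0.0385, 0.0198 and 0.00312 per fl and ACS1 was at -0.0171, -0.00808 and -0.0121 per fl. Of 7 scored glycerol genes 3 lay below (GUT1, STL1 and FPS1) and 0 above. The glycerol phosphatase genes GPP1 and GPP2, which act next after GPD1 and GPD2, did not share their direction: GPP1 scored -0.0481, 0.163 and 0.0293 per fl and GPP2 -0.0440, 0.362 and 0.0173 per fl. Of 10 regulators 4 lay below (MIG1, PDC2, REB1 and REG1) and 1 above (SNF1). None of these genes had a limma adjusted p under 0.05.

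The stretch of 500 bases before the start codon was read from R64 for 6000 nuclear genes and searched on both strands for 3 motifs. The stress response element AGGGG, bound in yeast by Msn2 and Msn4, occurred at least once before 34.1% of all genes. It occurred before 11 of the 13 genes (84.6%) that lay below the median gene throughout, all but PFK2 and TYE7, and before 8 of the 21 others (38.1%). Across all genes it occurred before 52.1% of those below in all 3 experiments and 24.4% of those above. HXK1, GPD1 and GLK1 had 3 matches each, while HXK2, TDH2 and ENO2 had none in this window. TDH1 and TDH3 had 2 each, although TDH3 scored above TDH1 in all 3 experiments. GLK1 lay on different sides in different experiments, so matches and scores did not always go together. The core of the Gcr1 site, CTTCC, occurred before 26 of the 34 genes (76.5%) and 66.1% of all genes, and the E-box CACGTG before 7 of 34 (20.6%) and 6.23% of all. A match is only these letters in this window, given as a description.

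Stretches of 80 bases are shown for 4 of the low genes and for GLK1, on the strand of the gene. AGGGG or its reverse complement CCCCT is in capitals. The stretches lie at chrVI:255470-255549 (minus strand) for HXK1, chrX:338011-338090 (plus) for TDH1, chrVII:1000497-1000576 (plus) for ENO1, chrIV:411480-411559 (plus) for GPD1 and chrIII:50628-50707 (plus) for GLK1, all in R64.
HXK1: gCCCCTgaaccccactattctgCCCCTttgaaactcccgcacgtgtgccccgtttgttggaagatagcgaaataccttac
TDH1: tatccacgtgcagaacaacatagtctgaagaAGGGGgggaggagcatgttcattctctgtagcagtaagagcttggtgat
ENO1: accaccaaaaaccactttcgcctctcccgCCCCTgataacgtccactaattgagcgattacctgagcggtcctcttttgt
GPD1: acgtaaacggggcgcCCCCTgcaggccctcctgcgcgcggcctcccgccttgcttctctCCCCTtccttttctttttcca
GLK1: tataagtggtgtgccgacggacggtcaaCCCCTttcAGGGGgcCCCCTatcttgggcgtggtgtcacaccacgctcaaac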

How the data were processed

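The authors deposited 1 table that holds, per gene, a scaling score for each series, its rank in experiment 1, and a signal, the median read count of that experiment. The formula of the score and the handling of counting, strand and depth are details not given in the sources used here. Per the submitters' processing notes, the aligner was Bowtie2 and the genome R64. The deposited read count is not a whole number for 2779 genes and sums to 282178, which is not a library's depth. Precision per library is therefore unknown. Libraries were grouped by source name. The members and lists were chosen with earlier results of these data known.

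For each of the 3 elutriation experiments scores were centred on the median of the 5771 genes scored in all 3, and limma 3.58.1 in R 4.3.3 ran a one-sample moderated test (Benjamini-Hochberg adjustment, threshold 0.05). The limma step was tested on simulated data with planted effects far larger than each gene's spread. That checks the code and says nothing of its power in these data. Percentiles use every gene scored in a series, so percentile 50 differs slightly from the median of the 5771 genes. TYE7 and PYK2, counted as below in all 3 experiments, stood at percentile 50.3 in experiment 3 and 50.4 in experiment 2, in that order. The named genes are all members and the listed pathway genes. Coding sequences and promoters were read from RefSeq's R64 with Biopython 1.88; 6022 of 6713 identifiers matched a locus tag. Alternatives changed the centring, the reads filter (10), the scale and the series included. The percentile 90 threshold, the split by reads and the steps in the elutriated WT scores were chosen after the values were seen.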

Additional observations from a re-analysis of the deposited data

Results flagged for a closer look

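4 genes lay below the median gene in every Cdc28-as series and above it in both WT series, out of 30 scored in all 6 series. Among all genes scored in all 6, 3.51% had this pattern, and 3.23% had the opposite one, which 0 of the 30 showed. GPD2 had percentiles from 12.3 to 36.2 in Cdc28-as cells and from 95.2 to 95.9 in WT cells, a gap of 59.0 points. PDC1 had 13.7 to 33.7 and 91.3 to 92.3, a gap of 57.6 points. ENO1 had 5.75 to 25.9 and 71.3 to 74.6, a gap of 45.5 points, and GCR1 had 16.6 to 46.9 and 79.1 to 88.7, a gap of 32.2 points. The difference between genotypes was not tested, since scores are per fl in one and per h in the other, and genotype cannot be told apart from the measure of progress.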

How the results depend on the processing

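Limma called 0 genes under the 9 alternatives as well. Without centring, 2049 genes scored above and 690 below 0 in all 3 experiments, with 5 and 8 of the members, and the mean of PFK2 turned to 0.00224 per fl, since the median gene itself scored above 0. With the time course added, 757 genes lay above and 770 below throughout, and 4 isoenzyme differences kept 1 sign, as 1 more series had to fit. Leaving out 1 experiment, with fewer series to fit, left 1 to 4 members above and 15 to 19 below throughout (both highest without experiment 1), against 1846 to 1912 of all genes above and as many below, and 9 to 14 isoenzyme differences with 1 sign. With the threshold at percentile 75, chosen after seeing the data, 25 of 32 members passed in elutriated WT cells, as did 1585 of 6341 genes, and at percentile 95 the counts were 12 members and 317 genes. Among genes with 10 or more reads, 12 of 29 members lay below throughout, without PYK2, and 0 above. Of all 4456 genes under this filter, 1068 lay below and 1039 above. There 7 isoenzyme differences kept 1 sign, without PDC5 over PDC1. For none of these counts of isoenzyme differences was a share over other pairs of genes computed. No paired analysis was possible because the numbers in the titles are the order of sizes or times and each series has 1 score per gene. Depth per library is unknown, which limits every score that starts from few reads.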
